A study of Mus musculus with 2 samples.

Results

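The 10 genes described here are Lrp2, Slc51a, Sidt1, Acod1, Cdo1, Enpp3, Arvcf, Amigo2, Fam83a and Nxpe3, out of 19070 genes measured. They were chosen by symbol for a strong drop in the uterine epithelium of Erbb3 d/d mice, so their lower level there is the reason for their choice and is given below as a description. The study compared single endometrial cells taken on day 3 of pregnancy between Erbb3 f/f females, the controls, and Erbb3 d/d females, whose uterine stroma lacks Erbb3 according to the labels, with 1 library for each. Erbb3 is a receptor of the ErbB family that binds neuregulins, and the series title concerns its part in the stroma in the shaping of uterine glands. The age and strain of the mice, the driver of the deletion and the number of mice behind each library were not given in the sources used here. With 1 library for each genotype the spread between animals is unknown, no test was made, and all intervals below are 95% counting intervals.

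The endometrial epithelium has a luminal layer, which faces the uterine cavity and meets the embryo, and glands that open into it. In early pregnancy the luminal layer passes from growth under estrogen to differentiation under progesterone, and it takes up and releases ions, lipids, proteins and small metabolites. Several of the genes belong to that exchange. Lrp2 encodes megalin, a large endocytic receptor of apical membranes. Slc51a encodes a subunit of the organic solute transporter that moves bile acids and steroid conjugates. Acod1 encodes the enzyme that makes itaconate, best known in activated macrophages and also known as a progesterone-responsive gene of the luminal epithelium.

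The promoters of Lrp2, Acod1, Slc51a and Nxpe3 are shown because these had the lowest d/d to f/f ratios among the members with at least 100 counts. Each line gives 200 bases, from 250 to 51 bases before the RefSeq start site, on the gene's strand, in build GRCm38.p6. Capitals mark AGGTCA, the half-site of many nuclear receptors, and AGAACA, the half-site of the progesterone and glucocorticoid receptors, on either strand. Lrp2 is at chr2:69586080-69586279 on the minus strand, Acod1 at chr14:103046762-103046961 on the plus strand, Slc51a at chr16:32487930-32488129 and Nxpe3 at chr16:55895330-55895529, both on the minus strand.
Lrp2: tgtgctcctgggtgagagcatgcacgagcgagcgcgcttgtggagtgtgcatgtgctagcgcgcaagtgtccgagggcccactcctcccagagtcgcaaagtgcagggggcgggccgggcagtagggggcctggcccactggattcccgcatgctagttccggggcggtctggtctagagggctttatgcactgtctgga
Acod1: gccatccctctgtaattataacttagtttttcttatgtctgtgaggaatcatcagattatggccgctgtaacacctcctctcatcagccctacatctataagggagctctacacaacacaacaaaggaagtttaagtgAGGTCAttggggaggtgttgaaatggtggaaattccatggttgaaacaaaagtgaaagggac
Slc51a: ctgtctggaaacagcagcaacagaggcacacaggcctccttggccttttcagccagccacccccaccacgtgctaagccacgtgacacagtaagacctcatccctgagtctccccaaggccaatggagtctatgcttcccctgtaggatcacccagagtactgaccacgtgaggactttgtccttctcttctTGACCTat
Nxpe3: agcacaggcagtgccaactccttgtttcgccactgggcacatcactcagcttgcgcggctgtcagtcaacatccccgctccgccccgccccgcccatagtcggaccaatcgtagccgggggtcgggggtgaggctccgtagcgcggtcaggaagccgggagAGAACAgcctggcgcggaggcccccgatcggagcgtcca

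The windows differed from each other in composition. The Lrp2 window was 65.0% G and C with 13 CpG pairs and the Nxpe3 window 68.0% with 20, whereas the Acod1 window was 42.0% with 1 and the Slc51a window 55.0% with 3, beside a median of 51.5% over 32851 windows in the table. AGGTCA was found in Acod1 and Slc51a, 2 of the 8 members that have a window (in Slc51a on the other strand, read as TGACCT), and in 11.4% of all windows. AGAACA was found in Nxpe3 alone among these 8 and in 13.2% of all windows. The complete estrogen response element (its inverted repeat with a gap of 3 bases, which overlaps AGGTCA) was in none of the members' windows and in 0.0517% of all. GGGCGG, the GC box, was in Lrp2, Nxpe3, Amigo2 and 1 of 3 windows of Arvcf, and in 24.6% of all windows. A binding motif of GATA factors, AGATAAG, was in 2.29% and TTCNNNGAA, a STAT motif, in 5.76% of all windows and in no member's window. All motifs were searched on both strands, a match does not show binding, and Fam83a and Cdo1 had no window that was used.

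In GRCm38 the genes lie on 6 chromosomes. Slc51a (chr16:32474504-32487879), Sidt1 (chr16:44240180-44333196), Nxpe3 (chr16:55839953-55895285) and Arvcf (chr16:18348182-18407076) share chromosome 16. Fam83a (chr15:57985419-58011009) and Amigo2 (chr15:97244125-97247287) share chromosome 15. Lrp2 (chr2:69424340-69586065), Enpp3 (chr10:24772406-24842823), Acod1 (chr14:103046977-103056573) and Cdo1 (chromosome 18) lie apart. The files hold 1 count for each gene and cell and do not place it within the gene.

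Deposited were 5783 f/f barcodes with 6819591 UMIs (unique molecular identifiers) and 2125 d/d barcodes with 2866862. After filtering, 5503 f/f and 1830 d/d cells remained with medians of 809 and 764.5 UMIs per cell. Markers placed 2376 f/f and 884 d/d cells in the epithelium, with 2488963 and 825924 UMIs, and 1642 and 409 cells in the stroma. The 12 epithelial markers together made up 4928 CPM (counts for each 1000000 UMIs) in the f/f epithelium and 5488 CPM in that of d/d, and all 12 were detected in both. The 10 stromal markers stood at 380 and 393 CPM in these cells, and the mitochondrial share of UMIs was 1.09% and 1.30%. No whole barcode occurred in both libraries, and 158 shared their first 16 bases. Each library carries its own number in its name, of unstated meaning, and whatever it marks and the genotype cannot be told apart. Erbb3 itself gave 79.1 CPM (197 UMIs) in f/f and 42.4 CPM (35 UMIs) in d/d epithelial cells, a log2 ratio of -0.90 (-1.46 to -0.38). In stromal cells it gave 12.5 CPM (20 UMIs) and 5.08 CPM (2 UMIs), and the log2 ratio was -1.30 with an interval from -4.45 to 0.74. Whether its probes lie in the deleted part was not given in the sources used here, so this level does not check the labels.

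Among the transport genes, Lrp2 was detected in 57.3% of f/f epithelial cells and in 7.58% of d/d epithelial cells. Its sums were 3087 UMIs, or 1240 CPM (1197 to 1285), in f/f and 116 UMIs, or 140 CPM (116 to 168), in d/d. The d/d level was 8.83-fold lower, a log2 ratio of -3.14 with an interval from -3.42 to -2.87. Slc51a gave 189 UMIs (75.9 CPM) in f/f and 4 UMIs (4.84 CPM) in d/d, 15.7-fold lower (log2 ratio -3.97, -5.86 to -2.59). Sidt1, a membrane protein of a family linked to nucleic acid uptake, gave 65 UMIs (26.1 CPM) and 2 UMIs (2.42 CPM), and its log2 ratio was -3.43 (-6.51 to -1.52), with -2.82 in thinned cells and -4.86 with clusters in place of gates. The counting intervals of the libraries did not overlap for any of the 3 genes, and for Sidt1 the size of the drop was poorly bounded.

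Both metabolic enzymes were lower in d/d. Acod1 gave 388 UMIs (156 CPM) in f/f and 13 UMIs (15.7 CPM) in d/d, a log2 ratio of -3.31 (-4.23 to -2.52). Cdo1, cysteine dioxygenase, which opens the route from cysteine to taurine, gave 339 UMIs (136 CPM) and 21 UMIs (25.4 CPM), a log2 ratio of -2.42 (-3.13 to -1.79), which was -3.37 when every cell was thinned to 500 UMIs. A UMI of Acod1 was present in 10.5% of the epithelial cells of f/f and in 1.13% of those of d/d, and one of Cdo1 in 11.7% and 2.38%.

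The surface and adhesion genes showed smaller ratios. Enpp3, an ectoenzyme that cleaves extracellular nucleotides, gave 3136 UMIs (1260 CPM) in f/f and 457 UMIs (553 CPM) in d/d. Its level was 2.28-fold lower, a log2 ratio of -1.19 (-1.33 to -1.05), and 33.3% of d/d epithelial cells still had a UMI of it, so the description of the genes as nearly absent does not hold for Enpp3. Arvcf, an armadillo-repeat catenin of the p120 family that binds cadherins, gave 946 UMIs (380 CPM) and 74 UMIs (89.6 CPM), a log2 ratio of -2.08 (-2.45 to -1.74). Amigo2, an adhesion protein with leucine-rich repeats, gave 153 UMIs (61.5 CPM) and 18 UMIs (21.8 CPM), 2.82-fold lower, with an interval of the log2 ratio from -2.29 to -0.79. These were the smallest drops of the 10 together with that of Cdo1.

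Of the remaining pair, Fam83a, whose family binds casein kinase 1, gave 76 UMIs (30.5 CPM) in f/f and none in d/d epithelial cells. A count of 0 was set at 3 counts, or 3.63 CPM, which gives a level 8.41-fold lower, a bound of -3.07 on the log2 scale. With counting error the upper end was -2.74, and the bound became -2.24 in cells thinned to 500 UMIs. Nxpe3, a little-studied protein with neurexophilin and esterase-like domains, gave 209 UMIs (84.0 CPM) and 3 UMIs (3.63 CPM), a log2 ratio of -4.53 (-6.82 to -2.96), which was -3.72 with all barcodes and -6.02 with at least 500 genes per cell. The plot of levels in epithelial cells shows all 10 genes lower in d/d with counting intervals apart.

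**Figure D1:**
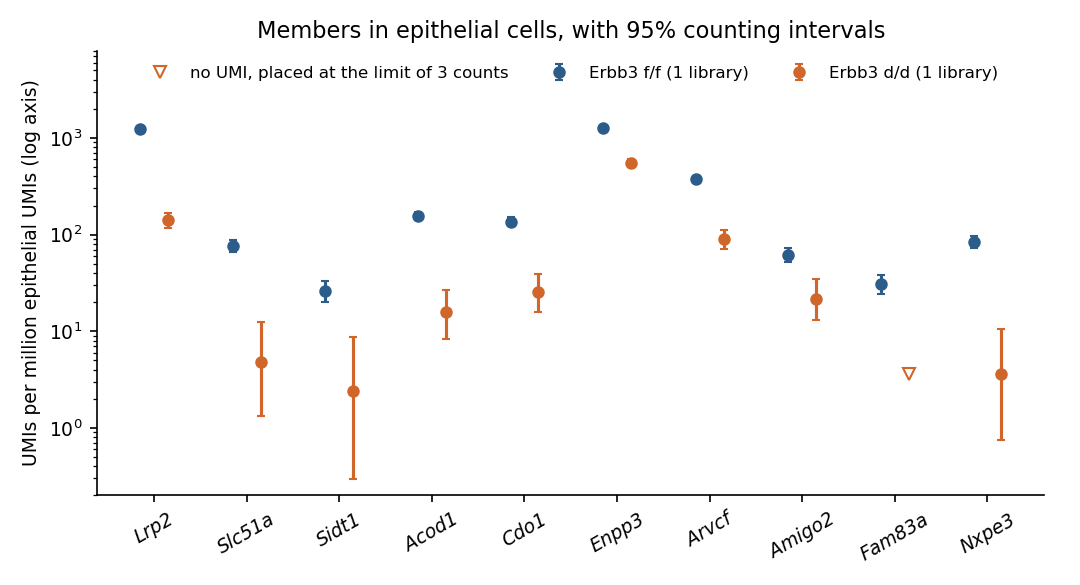
CPM in epithelial cells (log axis) for each gene in the f/f library (blue) and the d/d library (orange), with 95% counting intervals. The d/d level is lower for all 10 genes, by the least for Enpp3 (1260 against 553 CPM), and Fam83a, with no UMI in d/d, is drawn at the limit of 3 counts.

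The median log2 ratio of the 10 genes was -3.11, with Fam83a at its bound, and 8 of the 10 were at least 4-fold lower in d/d. Over all genes with at least 100 UMIs in epithelial cells, 44 of 7104, or 0.619%, were at least 4-fold lower, and the median log2 ratio of the 7104 was -0.02. With a minimum of 20 UMIs, which all members pass, the share was 1.38% of 10563 genes. Fam83a and Sidt1 had fewer than 100 UMIs, and 6 of the 8 other members were among those 44. At least 8-fold lower were 6 of the 10 members and 0.141% of the 7104 genes. Because this contrast chose the members, nothing is read from these counts. Counted from the lowest ratio of the 7104 genes, Nxpe3 was at place 1, Slc51a at 3, Acod1 at 9, Lrp2 at 10, Cdo1 at 25, Arvcf at 39, Amigo2 at 109 and Enpp3 at 204. The rule names no threshold, and 38 genes outside the set were also at least 4-fold lower. The lowest of these were Tmod1, a cap of actin filaments (-4.19), the phospholipase gene Pla2g10 with 118 UMIs in f/f and none in d/d, Rims3 (-3.57), Septin4 (-3.53), the amino acid transporter gene Slc6a14 (-3.39), Aqp11, an aquaporin (-3.35), the xanthine dehydrogenase gene Xdh (-2.90) and Zcchc10 (-2.87).

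**Figure D2:**
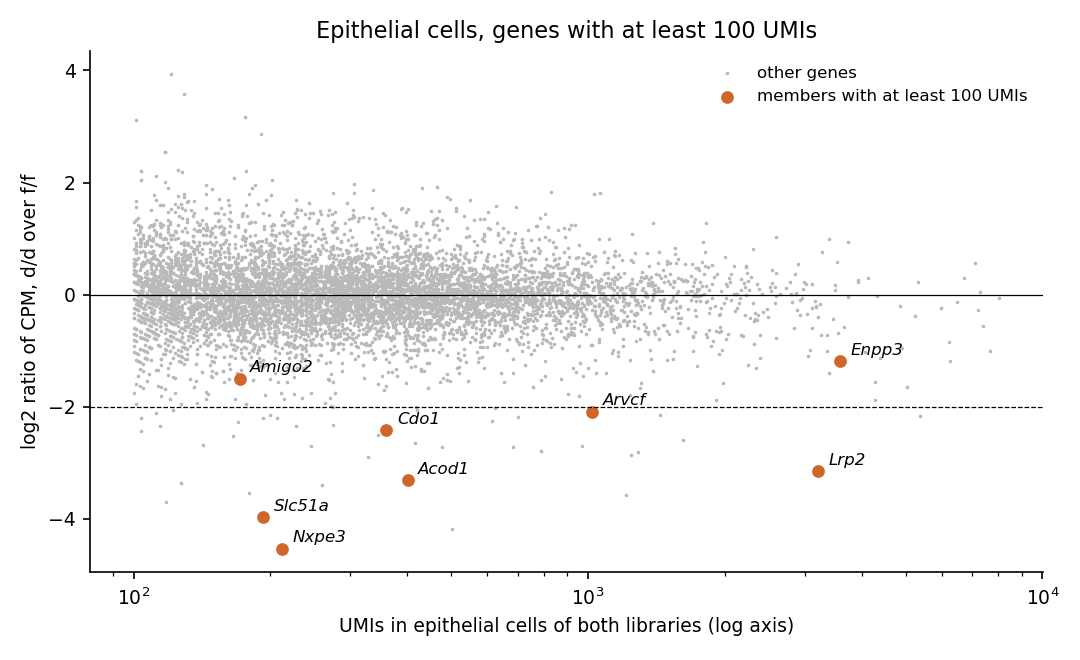
Each point is a gene with at least 100 UMIs in epithelial cells, placed by its UMIs in both libraries (log axis) and its log2 ratio of CPM, d/d over f/f. The 8 members with enough UMIs are in orange, and 6 of them lie below the dashed line at a 4-fold drop, as do 38 other genes.

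The f/f library alone was used to place the genes within the control epithelium. The members were chosen with earlier values by library and by marker-gated cell type in view, so these levels are a description. Cells were taken as luminal only if they had a UMI of a luminal marker (among them Wnt7a, Calb1, Lpar3, Slc5a11, Muc4 and Ptpn22) and none of a glandular marker (Foxa2, Cxcl15, Wfdc3, Spink1, Prss28, Prss29, Syn2, Gulo, Dab1), and as glandular only in the opposite case. That gave 1462 and 266 f/f cells. Of the 10 genes, 8 were higher in luminal-only cells, as were 49% of all 9421 genes with at least 20 UMIs in these cells, gate markers left out. At least 2-fold higher there were 7 of the 10 members and 10.6% of the 9421 genes, and at least 2-fold lower were 2 members and 7.31% of the genes. Slc51a stood at 86.9 against 11.9 CPM (log2 ratio 2.87, 1.29 to 5.16), Enpp3 at 1515 against 234 CPM (2.69, 2.32 to 3.09), and Acod1 at 194 against 31.8 CPM (2.61, 1.61 to 3.83). The ratio was 2.53 for Arvcf, 2.23 for Lrp2, 1.72 for Nxpe3, 1.55 for Amigo2 and 0.95 (0.27 to 1.71) for Cdo1.

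Fam83a and Sidt1 were higher in glandular-only cells, against the description of the set as luminal. Fam83a stood at 6.49 CPM in luminal-only and 167 CPM in glandular-only cells, a log2 ratio of -4.69 (-5.85 to -3.67), and Sidt1 at 7.13 and 115 CPM, a ratio of -4.01 (-5.16 to -2.97). The same 2 genes were found together. In f/f epithelial cells with a UMI of Fam83a, Sidt1 was at 132 CPM against 22.4 CPM in the others (log2 ratio 2.56, 1.47 to 3.51), while Enpp3 was at 420 against 1289 CPM. In cells with a UMI of Arvcf, Sidt1 was at 1.54 against 34.8 CPM.

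**Figure D3:**
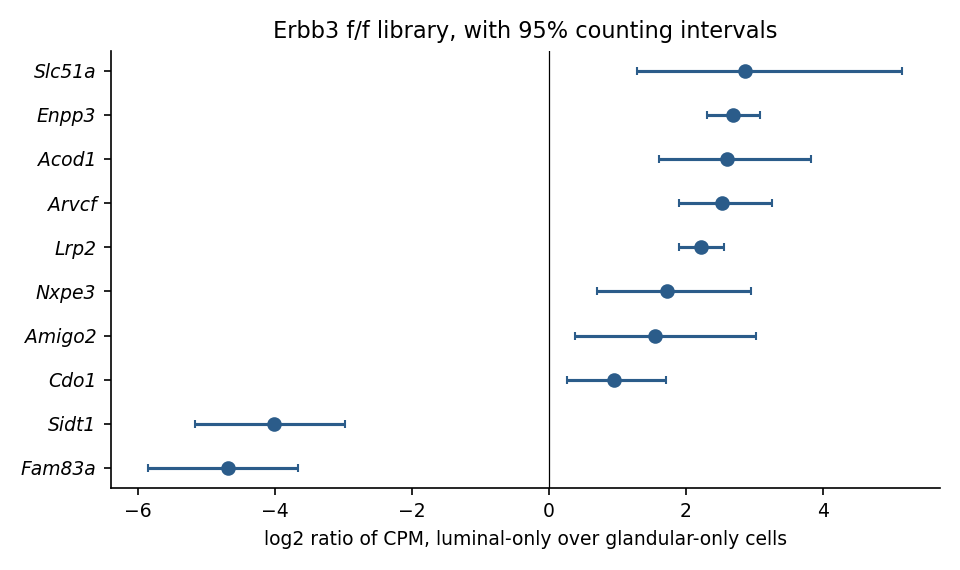
Log2 ratio of CPM in luminal-only over glandular-only cells of the f/f library for each gene, with 95% counting intervals. Slc51a to Cdo1 lie above 0, and Sidt1 (-4.01) and Fam83a (-4.69) lie far below it.

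The number of glandular cells differed between the libraries as well. Glandular-only cells were 11.2% of f/f epithelial cells (266) and 3.17% of d/d epithelial cells (28), while luminal-only cells were 61.5% and 63.5%. Cells with neither kind of marker were 15.3% and 27.3%, a difference of 11.9 percentage points (8.66 to 15.3). For cells with both kinds the difference was -5.84 points (-7.87 to -3.65). Of the 7 luminal markers, 4 were higher in d/d and 3 lower, with Slc5a11 at 370 CPM in f/f and 56.9 CPM in d/d. Muc4 and Ptpn22 together stood at 188 and 282 CPM. The near-equal luminal-only shares thus do not show that the luminal cells were alike. The 28 d/d glandular-only cells had no UMI of Fam83a or Sidt1, and 3 counts in them would be 117 CPM. Against 167 CPM in f/f, Fam83a was 1.43-fold lower at that limit, a bound of -0.52 on the log2 scale with an upper end of -0.16. For Sidt1, at 115 CPM in f/f, a difference was not detectable at this depth. With f/f levels in each gate and the d/d share of UMIs in each gate, the d/d epithelium would hold 18.6 CPM of Fam83a and 19.2 CPM of Sidt1, compared with 0 and 2.42 CPM measured. For the 10 genes summed the same step would give 3588 CPM, where 857 CPM was measured, and for Lrp2 it would give 1304 CPM, where 140 CPM was measured. The step takes each gate to hold the same kinds of cell in both libraries, which was not tested. A gland cell with no glandular marker detected falls in another gate, so the step does not fully separate gland share from level.

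Within luminal-only cells the 8 genes other than Fam83a and Sidt1 were lower in d/d by about the same ratio as in the epithelium as a whole. Lrp2 gave 2295 UMIs (1489 CPM) in the 1462 f/f cells and 85 UMIs (154 CPM) in the 561 d/d cells, a log2 ratio of -3.27 (-3.60 to -2.96). The ratio was -4.27 for Nxpe3, -3.74 for Acod1, -3.58 for Slc51a, -2.43 for Cdo1, -2.24 for Arvcf, -1.47 for Amigo2 and -1.37 for Enpp3. Of all genes with at least 100 UMIs in these cells, 0.668% were at least 4-fold lower. The 12 epithelial markers were at 5170 and 5644 CPM. Slc5a11, a marker of this gate, was at 505 CPM in f/f and 77.9 CPM in d/d. Whether the gate holds the same kinds of luminal cell in both libraries was not tested.

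Cells with a UMI of Slc5a11, a sodium and myo-inositol cotransporter gene of luminal cells that is not in the set, were 26.4% of f/f epithelial cells (628) and 4.41% of d/d epithelial cells (39), a difference of -22.0 percentage points (-24.2 to -19.7). For cells with a UMI of any luminal marker other than Slc5a11 the difference was -1.13 points (-4.79 to 2.45). In the f/f library the 10 genes summed to 4457 CPM in Slc5a11-positive epithelial cells and 3037 CPM in the other epithelial cells, a log2 ratio of 0.55 (0.49 to 0.62). Amigo2 (95.3 and 47.6 CPM) and Arvcf (516 and 324 CPM) were higher in them, and Nxpe3 stood at 87.0 and 82.7 CPM. Even within this gate the sum was lower in d/d, 1348 CPM against 4457 CPM, a log2 ratio of -1.72 (-2.11 to -1.36). Lrp2 stood at 522 CPM (24 UMIs) against 1629 CPM, and Arvcf at 130 CPM (6 UMIs) against 516 CPM. Fewer Slc5a11-positive cells and a lower mean level over them were thus both measured. Lrp2 was detected in 74.4% of the f/f cells of this gate and in 20.5% of those of d/d (8 of 39). The lower mean of Lrp2 is thus not a lower level in every cell. With the f/f levels in positive and negative cells and the d/d share of UMIs in each, the sum would be 3116 CPM, where 857 CPM was measured. This again takes the gates to hold the same kinds of cell in both libraries, which was not tested. In cells thinned to 500 UMIs the difference in shares was -13.7 points and the ratio within the gate -0.997.

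Cells were next thinned to 500 UMIs each, so that the libraries could be compared at 1 depth, leaving out 3 f/f cells and 1 d/d cell. At least 1 of the 10 genes was then detected in 69.5% of 2373 f/f epithelial cells and in 30.1% of 883 d/d cells, compared with 81.5% and 43.1% before thinning. More than 1 member in the same cell was rarer still: exactly 2 were found in 23.8% of the f/f cells and 3.74% of the d/d cells, and exactly 3 in 9.06% and 0.453%. Lrp2 was detected in 40.1% of thinned f/f and 5.32% of thinned d/d cells, and Enpp3 in 37.7% and 22.2%. In stromal cells, taken for comparison, a member was found in 14.3% of thinned f/f and 8.80% of thinned d/d cells, with median depths of 757.5 and 727 UMIs before thinning. In the d/d epithelium Slc51a, Nxpe3, Sidt1 and Fam83a were each in at most 2 of 883 thinned cells, a level at which free RNA from other cells cannot be told apart from expression.

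The Lrp2 that remained in d/d was unevenly spread. It lay in 67 of 884 epithelial cells, and 12 of these held 3 or more UMIs each and 44 of the 116 UMIs together. Cells with a UMI of Lrp2 had more Arvcf than those without in both libraries, 479 against 213 CPM in f/f (log2 ratio 1.17, 0.94 to 1.40) and 390 against 63.2 CPM in d/d (2.62, 1.88 to 3.34). For Enpp3 the values were 1513 and 831 CPM in f/f and 1125 and 503 CPM in d/d. Median depth in cells with and without Lrp2 was 973 and 791.5 UMIs in f/f and 871 and 811 UMIs in d/d. The Lrp2-positive d/d cells thus carried Arvcf and Enpp3 nearer to the f/f level than the other d/d cells did.

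Clustering of all cells on their most variable genes, with the 10 members left out, gave 6 epithelial clusters with 2838 f/f and 1056 d/d cells. Most of the Lrp2 UMIs of d/d lay in clusters 1 and 12. They are set apart here for that reason. A high d/d level of Lrp2 in them, and a low one in the other epithelial clusters, thus follows from the choice. Cluster 12 had 15 f/f and 59 d/d cells, and cluster 1 had 968 f/f and 12 d/d cells. The 71 d/d cells of both clusters were 6.72% of the d/d cells and held 61.0% of their Lrp2 UMIs (83 of 136), 46.1% of their Arvcf UMIs and 12.3% of their Enpp3 UMIs. Over both clusters together Lrp2 stood at 1879 CPM in f/f and 1318 CPM in d/d (log2 ratio -0.51, -0.85 to -0.19) and Arvcf at 737 and 651 CPM (-0.18, -0.67 to 0.28). Enpp3 stood at 1958 and 1064 CPM (-0.88, -1.25 to -0.53). Cdo1 counts were 190 and 1 (-3.63, -8.94 to -1.14), those of Nxpe3 123 and 1 (-3.01, -8.32 to -0.50) and those of Acod1 192 and 0. The f/f cells here were mostly of cluster 1 and the d/d cells mostly of cluster 12, so these ratios mix the clusters. In the 15 f/f cells of cluster 12, Cdo1 and Nxpe3 had no UMI and Acod1 had 3. The 12 d/d cells of cluster 1 had no UMI of Cdo1, Nxpe3 or Acod1, which at this depth still allows the f/f level. A difference of these members from Lrp2 and Arvcf is therefore not read from the counts. A cluster that comes mostly from 1 library may reflect that library and not a cell type.

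In cluster 1, Lrp2 stood at 1882 CPM in f/f and 1866 CPM in d/d (log2 ratio -0.01, -0.69 to 0.59), and Slc5a11 at 675 and 1103 CPM. In cluster 12, Lrp2 stood at 1643 CPM in f/f and 1192 CPM in d/d (-0.46, -1.16 to 0.27), and Enpp3 at 1183 and 919 CPM. Arvcf was at 1315 and 567 CPM there, a log2 ratio of -1.21 (-2.09 to -0.31). Slc51a, Fam83a and Sidt1 had no UMI in cluster 12, and Acod1 and Slc5a11 had none in its 59 d/d cells. In the other 4 epithelial clusters together Lrp2 stood at 837 CPM in f/f and 58.9 CPM in d/d, a log2 ratio of -3.83 (-4.25 to -3.43), and Enpp3 at 817 and 530 CPM (-0.62). The clusters come from other genes of the same cells, so the comparison is a description.

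The genes that set cluster 12 apart from the other epithelial clusters were led by Gbp8, Tbx2, Tmc5, Uox and Chst10, followed by Ovgp1, the gene of the oviduct-specific glycoprotein, at 392 against 10.9 CPM. Cbs, which makes cystathionine from homocysteine and serine, was at 2365 against 113 CPM. What these cells are was not tested. Cluster 1 was led by Slc24a4, Sox2, Ptprz1, Alkal2 and Septin4, with Tmod1 at 391 against 57.1 CPM. Septin4 and Tmod1 are also among the genes outside the set with the lowest d/d ratio. The leading genes were taken over the cells of both libraries, and cluster 1 is nearly all f/f. Such an overlap thus follows in part from how the genes were taken.

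**Figure D4:**
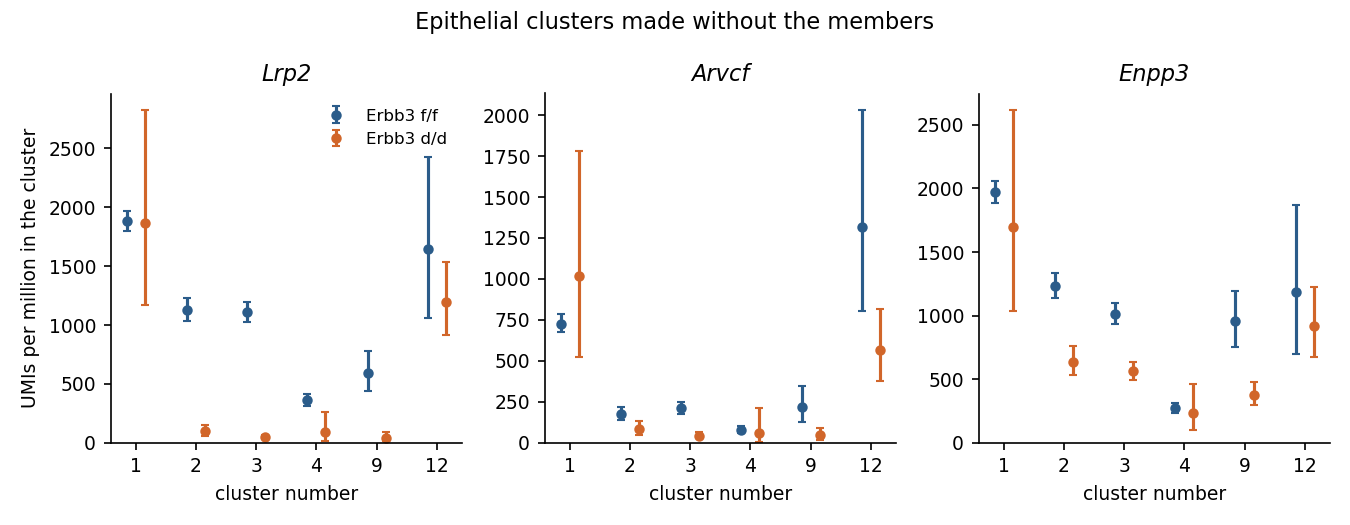
CPM of Lrp2, Arvcf and Enpp3 in the 6 epithelial clusters (by cluster number) for the f/f library (blue) and the d/d library (orange), with 95% counting intervals. The d/d level of Lrp2 is near that of f/f in clusters 1 (1866 against 1882 CPM) and 12 and far lower in clusters 2, 3 and 9.

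Cycling cells, those with a UMI of 12 S-phase and mitosis genes such as Mki67 and Top2a, made up 34.2% of the f/f epithelium and 67.2% of the d/d epithelium. In f/f, Lrp2 stood at 1124 CPM in cycling and 1326 CPM in other cells, a log2 ratio of -0.24 (-0.34 to -0.13). In d/d it stood at 59.6 and 360 CPM, a ratio of -2.59 (-3.20 to -2.01). Arvcf showed the same, with a ratio of -0.65 (-0.85 to -0.45) in f/f and -1.91 (-2.63 to -1.21) in d/d, at 51.4 and 193 CPM. Enpp3 did not, with ratios of -0.30 and -0.29. For Lrp2 and Arvcf the counting intervals of the libraries were apart, and the difference between genotypes was not tested beyond that. In both kinds of cell Lrp2 was lower in d/d than in f/f. The 12 cycling genes summed in d/d to 339 CPM (4 UMIs) in cluster 1 and 313 CPM in cluster 12. They summed to 587 to 4699 CPM in the d/d cells of the other epithelial clusters. Most d/d Lrp2 UMIs lay in clusters 1 and 12, so the cycling contrast in d/d is not separate from that of the clusters.

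The stromal class was the largest outside the epithelium. In f/f stromal cells, members reached 8.25% to 48.0% of their epithelial CPM with a median of 16.3%, and the 12 epithelial markers reached 7.05% to 21.1% with a median of 13.0%. The stromal class was set by having few epithelial markers, which lowers the second range. Sidt1 (48.0%, 29.3 to 74.1), Nxpe3 (33.6%, 24.5 to 44.9) and Fam83a (32.8%, 18.8 to 53.3) lay above the marker range, and the other 7 within it. For those 7 the stromal counts cannot be told apart from free epithelial RNA. The interval of Fam83a reaches into the marker range. In d/d stromal cells Fam83a and Sidt1 had no UMI and Nxpe3 had 3. Whether stromal cells express these 3 genes was not tested. Summed, the members stood at 487 CPM in f/f and 206 CPM in d/d stromal cells, a log2 ratio of -1.25 (-1.59 to -0.91), while the epithelial markers in the same cells stood at 586 and 891 CPM. Lrp2 was at 167 and 33.0 CPM there, and Enpp3 at 143 and 124 CPM (-0.21, -0.68 to 0.24). In the 129 f/f and 36 d/d endothelial cells the members summed to 633 CPM (69 UMIs) and 152 CPM (5 UMIs, all of Enpp3).

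**Figure D5:**
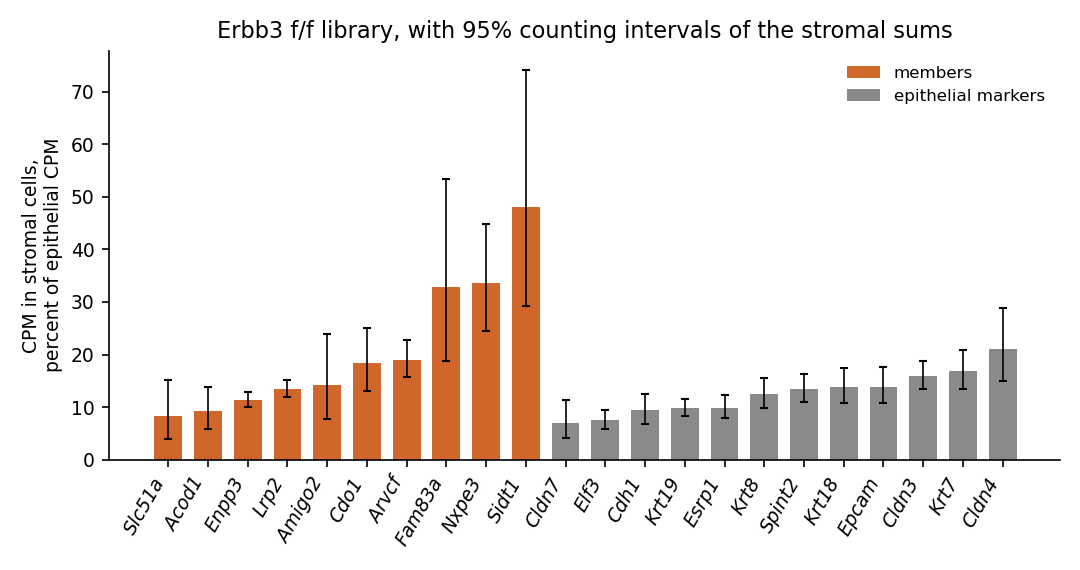
CPM in f/f stromal cells as a percent of CPM in f/f epithelial cells for the 10 genes (orange) and the 12 epithelial markers (grey), with 95% counting intervals of the stromal sums. Fam83a, Nxpe3 and Sidt1 stand above the highest marker, Cldn4 at 21.1%, and the other members lie in the markers' range.

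Acod1, known for macrophages, was also looked for in myeloid cells. None of 43 f/f myeloid cells had a UMI of it, which allows up to 8.22% of them (Clopper-Pearson) to hold a UMI and sets no limit on cells that express the gene. The cluster named by myeloid markers had 252 f/f cells with 9 UMIs of Acod1 (20.8 CPM, 9.51 to 39.5) and 119 d/d cells with 6 (30.3 CPM, 11.1 to 66.0). Lrp2 stood at 256 CPM in f/f and 30.3 CPM in d/d in this cluster, and Enpp3 at 231 and 131 CPM. The Acod1 of its f/f cells thus cannot be told apart from epithelial RNA. In d/d, 1 of 22 myeloid cells held 5 UMIs of Acod1, with 9 UMIs of myeloid markers and none of epithelial markers. Of the 501 Acod1 UMIs in all f/f cells used, 388 were in the epithelial class.

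Genes that work with the members are given next, from fixed lists. For the endocytosis genes around megalin, 14 of 17 were counted (at least 20 UMIs), of which 3 were at least 2-fold lower in d/d epithelial cells, with a median log2 ratio of -0.12. Over all 10563 genes counted, 7.22% were at least 2-fold lower and 7.41% at least 2-fold higher, with a median of -0.01. Lower were Clcn5 (-1.18), a chloride transporter of endosomes, Myo6 (-1.28), a motor of endocytic vesicles, and Rab11a (-1.02, -2.31 to 0.07). Lrpap1, the chaperone of megalin, stood at 390 and 197 CPM (-0.98, -1.23 to -0.74). Dab2, the adaptor of megalin, stood at 65.9 and 117 CPM (0.83), and the co-receptor genes Cubn and Amn were not counted.

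Of the cysteine and taurine genes 13 of 15 were counted, 2 lower and 2 higher by at least 2-fold, with a median of -0.55. The taurine transporter gene Slc6a6 was lower (-1.03, -1.52 to -0.57), as was the sulfite oxidase gene Suox (33 UMIs against 1). The cystine transporter gene Slc7a11 (1.26) and Got1 (1.49) were higher, and Csad, which follows Cdo1 in taurine synthesis, stood at 572 and 339 CPM (-0.75, -0.95 to -0.57). Of the itaconate and citric acid cycle genes 17 of 19 were counted, none lower and 1 higher by at least 2-fold, Idh2 (1.19), with a median of -0.03. Slc51b, the partner subunit of Slc51a, had fewer than 20 UMIs, and none of the 5 transport genes counted of 11 passed 2-fold, with a median of 0.68.

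Among the relatives of Enpp3, 10 of 16 ectonucleotidase and adenosine genes were counted, 3 lower and 1 higher. Enpp1 was lower (101 and 25.4 CPM, -1.99, -2.71 to -1.34), as were Enpp5 (24 and 2 UMIs) and Entpd2 (-1.22, -2.93 to 0.14), and Entpd3 was higher (2.04, 1.45 to 2.63). Of the p120 catenin and adherens junction genes 12 of 14 were counted, none lower and 1 higher, Ctnnd2 (3.12, 2.46 to 3.82), while Ctnnd1, the p120 catenin itself, stood at 206 and 207 CPM. Of the relatives of Fam83a, Sidt1, Nxpe3 and Amigo2, 6 of 14 were counted and 1 was at least 2-fold lower, Amigo3, on 18 and 2 UMIs. Sidt2 stood at 125 and 105 CPM (-0.24, -0.60 to 0.11).

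Acod1 is known as a progesterone response gene, and the uterine epithelium answers to both ovarian hormones. The values that follow are over all epithelial cells, in which the 9 glandular markers together stood at 408 CPM in f/f and 137 CPM in d/d, and the part of these in the lists' values was not tested. Of the progesterone response list 28 of 32 were counted, with a median of -0.49, 7 at least 2-fold lower and 2 at least 2-fold higher. Lower were the kinase gene Sgk1 (706 and 191 CPM, -1.88), the growth factor gene Areg (52 UMIs against 3, -2.52), Klf15 (46 against 1) and Foxa2 (-1.58), itself a glandular gate marker. Also lower were Gli1 (38 UMIs against 6, -1.07, -2.60 to 0.18), Cyp26a1 (-1.28, -3.67 to 0.45) and Calca. The intervals of Gli1 and Cyp26a1 include 0. Calca, whose f/f count was 21 and d/d count 0, was among the leading genes of cluster 4, as were the glandular markers Wfdc3 and Cxcl15. The receptor gene Pgr stood at 380 and 255 CPM (-0.57, -0.80 to -0.36). Cdkn1a (2.54) and Alox15 (1.25) were higher. Of the estrogen response list 17 of 18 were counted, with a median of 0.54, 6 at least 2-fold higher, among them Greb1 (2.20) and Ccnd1 (48.2 and 137 CPM), and 3 lower, Clca3b (71 UMIs against 1), Igf1r (-1.55) and Stat5a (-1.29). The receptor gene Esr1 stood at 898 and 844 CPM. In luminal-only cells 25 of the progesterone list were counted, 5 lower and 2 higher by at least 2-fold, with a median of -0.47, beside 7.38% lower and 7.41% higher of all 9709 genes counted there. Sgk1 stood at -1.97 in these cells, while Ihh, at -0.56 over all epithelial cells, stood at 0.16 (-0.62 to 0.90) and Zbtb16, at -0.49 over all, stood at 0.47 (-0.04 to 0.96). Of the estrogen list 16 were counted there, 7 higher and 4 lower, with a median of 0.22.

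Genes whose pattern was most like that of the members were taken by fixed rules. In f/f epithelial cells, the genes most enriched where a member was detected (1936 cells) over where none was (440 cells) were Gramd2 (log2 ratio 3.77), L1cam (3.43), Usp2 (3.32), Camk1d (2.58), Acbd7 (2.56) and Pnkd (2.25), out of 6106 genes with at least 100 UMIs. For Gramd2, L1cam and Usp2 the ratio rests on 2 UMIs in the cells without a member. Of the 6, Pnkd, Gramd2 and Acbd7 were lower in the d/d epithelium, with log2 ratios of -2.71, -2.26 and -1.80, and L1cam was at -0.22. Over 10 points (cell class by library), the log2 profiles closest to the mean of the members were those of Cyp4x1 (Pearson r 0.95), Rnf24 (0.95), Ano2 (0.95), Pllp (0.94) and Slc22a15 (0.94) out of 9740 genes. The points share libraries, and the similarity is a description.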

How the data were processed

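The members and the gene lists were chosen with earlier results of these data known. The authors deposited UMI counts without normalization, 1 matrix for each library, and the file headers name Cell Ranger 9.0.0. Per the labels' protocols the tissue was fixed and then dissociated, and probe pairs were sequenced by the Chromium Flex workflow, so a count depends on the probes of a gene and levels are not compared between genes. The submitters' processing notes name mm10 and GRCm39 without saying which was used. Locations are from GENCODE M21 and promoter windows from RefSeq, both on GRCm38, matched by symbol, with 8 of 10 members having a window. The identifier of Arvcf in the files differs from that in GENCODE M21.

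Barcodes with at least 200 genes and at most 10% mitochondrial UMIs were used. A cell took the class whose fixed markers gave the most UMIs, if these were at least 2 and at least 2 times those of the next class. This scoring was set after the values had been seen, and markers of the smaller classes were used only where they were 3 times higher in their own cells. No doublet caller was run, and cells with mixed markers were left out (350 f/f and 144 d/d with epithelial and stromal markers). Gates within the epithelium needed 1 UMI. UMIs were summed by class and library and divided by all UMIs of the class (CPM). Sums have exact Poisson intervals, shares exact Clopper-Pearson intervals and ratios exact conditional binomial intervals, at 95%, which cover counting error only. A count of 0 was set at 3 counts for bounds. Each genotype has 1 library, so no p-value was computed. The ratio step was tested on simulated data.

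Named genes were the members, the 8 others with the lowest epithelial ratio, the 6 and 5 genes most like the set in f/f cells and in class profiles (on log2 of CPM plus 10), and the genes of the fixed lists past 2-fold, with some partners of members chosen after their values were seen. A result on 1 gene of these lists and the name of 1 luminal marker are not reported here. Clusters were made with scanpy 1.11.5 and leidenalg 0.10.2 without the members. Python 3.11.15, numpy 2.4.6, scipy 1.17.1 and pandas 2.3.3 were used. Alternatives were all barcodes, other marker minimums and gates, other scalings, thinned cells, clusters in place of gates, and leaving out members or barcodes.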

Additional observations from a re-analysis of the deposited data

How the results depend on the processing

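Over 186 recomputed values none changed direction, and 172 were taken as unchanged. For ratios and shares this meant a value inside the counting interval of the reported one. The 14 counts of members have no interval and, at 6 to 10 beside 8, were taken as unchanged too. Leaving out Lrp2 cannot move the ratio of another member, and those repeats are included. All 109 values of single members stayed negative, with ranges of -3.65 to -3.07 for Lrp2, -1.34 to -1.10 for Enpp3 and -2.24 to -1.95 for Arvcf. Wider were those of Fam83a (-5.39 to -2.24, where the end nearest 0 is a bound), Nxpe3 (-6.02 to -3.72), Sidt1 (-4.86 to -2.82) and Cdo1 (-3.37 to -2.01). The count of members at least 4-fold lower was 7 in thinned cells and with clusters in place of gates, and 8-fold and 2-fold thresholds gave 6 and 10. The summed log2 ratio in epithelial cells was -2.16 per UMI of the epithelial markers and -1.62 without Lrp2. In stromal cells it was -1.79 with clusters in place of gates and -0.89 without Lrp2. In Slc5a11-positive cells it was -0.997 in cells thinned to 500 UMIs. The difference in the share of Slc5a11-positive cells was -13.7 points in thinned cells, and -1.13 points for the luminal markers without Slc5a11. The f/f ratio of positive over other cells was 0.35 with all barcodes, 0.65 with clusters and 0.79 for the luminal markers without Slc5a11. The causes of these shifts were not tested. Leaving out barcodes whose first 16 bases occur in both libraries, and counting the members with at least 100 UMIs alone, were chosen after seeing the data. No paired analysis was possible because each genotype has 1 library. For the same reason no replicate could be left out, and differences between animals, between library preparations and between genotypes cannot be told apart. Depth limits Fam83a, Sidt1, Slc51a and Nxpe3, which had 4 or fewer UMIs in the d/d epithelium.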

Other observations

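Of the 10 genes, 4 (Slc51a, Sidt1, Nxpe3 and Arvcf) lie on chromosome 16, which holds 3.20% of the 6991 genes that were counted in epithelial cells and placed on the genome. Among the 44 genes at least 4-fold lower in the d/d epithelium, 6 were on chromosome 16, or 13.6%. Slc51a, Nxpe3 and Arvcf, chosen for their low ratio, are among these 6. The share thus partly repeats the count of members, and no test was made.

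In the f/f epithelium the 10 genes summed to 3003 CPM in cycling and 3779 CPM in other cells, a log2 ratio of -0.33 (-0.40 to -0.27). Slc51a stood at 49.3 CPM in cycling and 95.5 CPM in other cells, a log2 ratio of -0.95 (-1.44 to -0.48), and Nxpe3 at 64.5 and 98.3 CPM (-0.61, -1.05 to -0.18). The interval of Nxpe3 includes the ratio of the sum. Acod1 stood at 156 CPM in both.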
